A study of Arabidopsis thaliana with 75 samples.

Results

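The ttg mutant of Arabidopsis, which makes excess hair cells in the root epidermis, was compared with the other hairy lines, wer myb23 and gl3 egl3. The comparison was made within each of the array facilities, Michigan and Duke, as the ttg group mean minus the mean of the wer myb23 and gl3 egl3 group means on the log2 scale. All 21440 genes on the array were tested. The members described below are the 81 genes that passed a false discovery rate of 5% at both facilities in the same direction, 46 of them lower and 35 higher in ttg. TTG1 itself and 5 genes near it were among the lower genes.

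TTG1 is a WD40-repeat protein that joins an R2R3 MYB protein (WER or MYB23) and a bHLH protein (GL3 or EGL3) in a complex that directs epidermal cells towards the non-hair fate through GL2. CPC and TRY are small MYB proteins that compete for the same bHLH partners in the neighbouring hair cell files. Loss of any layer of the complex therefore gives hairy roots, and TTG1 is also needed for trichomes, seed coat mucilage, and flavonoid pigments in the plant.

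The arrays compared numbered 18, with 3 biological replicates of each line at each facility. The ttg line carried ttg1-13, an allele the study describes as a deletion made by fast neutrons. The wer myb23 line carried wer-1 and myb23-1, and the gl3 egl3 line carried gl3-1 and egl3-1. The hairless cpc try line (cpc-1 try-82, both facilities) and wild type Columbia (Michigan) served as outside points. Every line carried the WER::GFP transgene, whose promoter is active in the epidermis and the lateral root cap, and more strongly in non-hair cells. Sorted GFP-positive cells came from pooled root tips of about 2 mm cut from 5-day-old seedlings in continuous light. The values therefore mix hair cells, the remaining non-hair cells, and root cap cells of all stages, and fewer cells of a type cannot be told apart from less RNA per cell.

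The sorted cells carried epidermal transcripts. WER ranged from 10.48 to 11.74 on the log2 scale in the 9 Michigan arrays of the hairy lines and from 7.02 to 9.67 in the 9 Duke arrays. EXPA7, an expansin of growing hairs, ranged from 10.37 to 11.10 in ttg at Michigan and from 9.61 to 10.51 at Duke, against 4.99 to 5.59 in all cpc try arrays. The mean of 15 stele markers stayed between 5.51 and 5.64 in the ttg arrays at Duke, against 5.33 to 5.54 in wer myb23 and 5.66 to 6.27 in gl3 egl3. At Michigan it was 4.91 to 4.96 in ttg, 4.96 to 5.02 in wer myb23 and 4.89 to 5.06 in gl3 egl3. Against the mean of both lines, 0 of these markers were called at either facility. At Duke their median difference was 0.12 against wer myb23 and -0.42 against gl3 egl3, so that mean joins lines on opposite sides of ttg.

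Some arrays stood apart from their group before any comparison. The 3 gl3 egl3 arrays of Duke correlated with those of ttg at only 0.886 to 0.937 across genes, whereas the ttg arrays correlated with each other at 0.993 to 0.997. Replicate 2 of wer myb23 at Duke correlated with the other replicates of its line at a mean of 0.923, and its mean for the 16 stress and wounding genes was 7.58 against 8.92 and 9.02 in the other replicates. The ttg arrays held that list at 9.57 to 9.68 and the gl3 egl3 arrays at 9.98 to 10.28, so the lines did not overlap at Duke, although 0 of the 16 genes were called at either facility. At Michigan, replicate 2 of gl3 egl3 had GL2 at 8.52, against 2.92 and 4.79 in the other replicates of a line that lacks both bHLH partners. The part of these arrays in the calls was measured by leaving each out, as given below.

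At Michigan, 299 genes (1.39% of those tested) differed between ttg and the other hairy lines, 0.541% higher and 0.854% lower. At Duke, 1182 genes (5.51%) differed, 701 higher (3.27%) and 481 lower (2.24%). The median standard error of a difference was 0.27 at Michigan and 0.15 at Duke. Of the 299 Michigan genes, 244 (81.6%) had the same sign at Duke, and of the 1182 Duke genes 874 (73.9%) had the same sign at Michigan, beside 63.1% of all genes. The 81 genes called in the same direction at both facilities (0.378% of those tested, with 0.163% higher and 0.215% lower) made up 27.1% of the Michigan calls and 6.85% of the Duke calls. Another 5 genes (0.0233%) were called at both facilities in opposite directions. Across all genes, the differences at the facilities correlated at 0.37, and over the Michigan calls at 0.71.

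**Figure D1:**
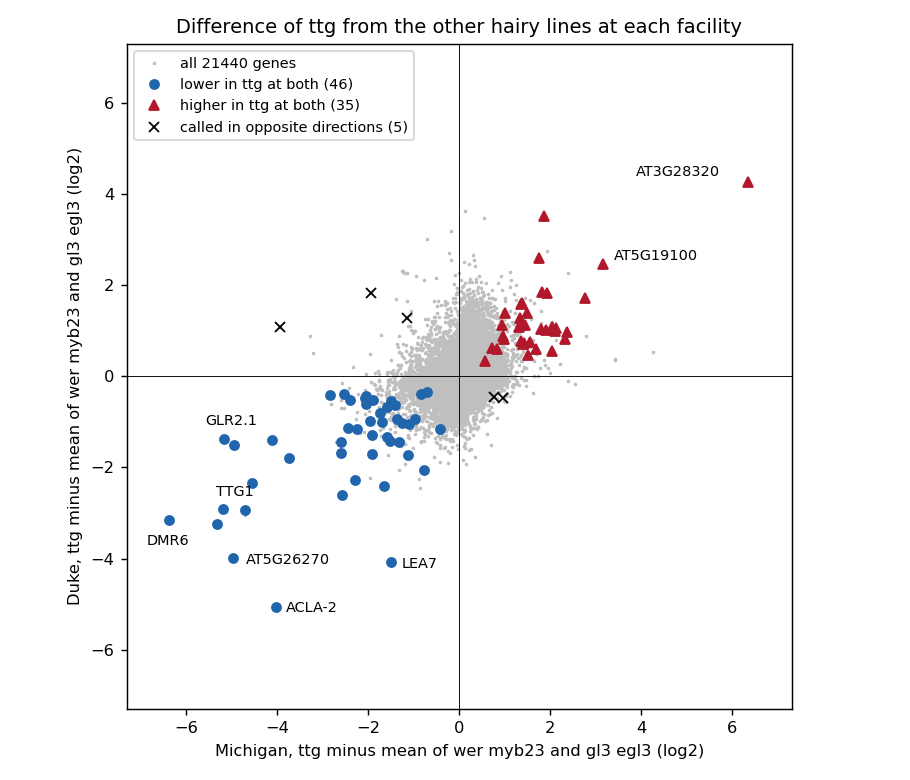
Difference of ttg from the mean of wer myb23 and gl3 egl3 (log2) at Michigan on the horizontal axis and at Duke on the vertical axis, with 1 point for each of the 21440 genes. The 46 blue circles are lower and the 35 red triangles higher at both facilities, the 5 crosses were called in opposite directions, and TTG1, DMR6, ACLA-2 and AT5G26270 lie far from the cloud at both.

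The counts depended on which arrays were used. Without replicate 1, 2 or 3 of ttg at Michigan, 181, 125 or 194 genes were called there, and without those of Duke 202, 188 or 298. The shared genes then numbered 49 without Michigan replicate 2 and 40, 41 and 49 without the Duke replicates in turn. Leaving out replicate 2 of wer myb23 at Duke raised the Duke calls to 4940 and the shared genes to 0.611% of those tested, among them all 81. Without replicate 2 of gl3 egl3 at Michigan, 90 genes were shared, 75 of them among the 81. Against wer myb23 alone, which leaves the gl3 egl3 arrays out of the contrast, 55 of the 81 passed at both facilities. With all arrays of a facility set to the same median, the shared genes were 33 higher and 71 lower. In every fit that left out an array of the 18, 17 of the lower and 7 of the higher genes stayed called at both facilities.

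TTG1 (AT5G24520, chromosome 5) was the check of the line. Its value at Michigan was 3.45, 2.87 and 3.81 in the ttg arrays, against 8.20 to 8.83 in wer myb23, 8.40 to 8.67 in gl3 egl3 and 8.09 to 8.66 in wild type. At Duke, ttg read 4.93, 5.01 and 4.57, against 7.59 to 8.29 in wer myb23 and 7.55 to 7.64 in gl3 egl3. No ttg array overlapped another line, and the difference was -5.18 ± 0.22 (SE, n = 3 per line) at Michigan (36.3-fold lower, adjusted p = 3.4e-23) and -2.91 ± 0.15 at Duke (adjusted p = 6.99e-06). The ttg values at Michigan lay close to the 5th percentile of those arrays (2.87 to 2.90), which left little room for a larger difference there.

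The genes next to TTG1 fell with it. DMR6 (AT5G24530), an oxygenase that inactivates salicylic acid and lets downy mildew grow, follows TTG1 in gene order. Its value was 3.47, 3.07 and 4.11 in ttg at Michigan, against 9.16 to 10.75 in wer myb23 and 9.29 to 10.47 in gl3 egl3, and 5.24, 4.73 and 4.66 in ttg at Duke, against 6.20 to 8.13 and 7.70 to 9.7. The ttg arrays were the lowest throughout, with differences of -6.38 ± 0.32 (adjusted p = 2.45e-20) and -3.15 ± 0.46 (adjusted p = 0.00644). On the other side, AT5G24450 read 3.16, 3.29 and 3.20 in ttg at Michigan against 8.16 to 8.79 in the other lines, and 4.09, 4.07 and 3.86 at Duke against 6.86 to 7.70. The difference was -5.31 ± 0.14 at Michigan and -3.25 ± 0.14 at Duke. AT5G24430 fell by 4.71 and 2.94 on the log2 scale at Michigan and Duke, AT5G24490 by 4.95 and 1.5, and AT5G24500 by 2.28 and 2.26, with no overlap between ttg and the other lines for any of these genes.

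The loss in this run was not continuous. Among the 11 measured genes from AT5G24430 to DMR6, 6 were lower and 1 was higher at both facilities. AT5G24480 rose, from 2.72 to 3.00 in the other lines to 4.03, 3.84 and 3.72 in ttg at Michigan, and from 5.46 to 6.16 in the other lines to 6.63, 6.94 and 6.67 at Duke. At Michigan the other lines lay near the 5th percentile of the arrays (2.86 to 2.95) for AT5G24480, so it was barely detected there outside ttg. Its differences were 0.96 ± 0.15 (adjusted p = 2.62e-05) and 0.88 ± 0.11 (adjusted p = 0.0028). PRR5, a pseudo-response regulator of the circadian clock, had differences of -0.72 and -0.74 and passed at neither facility, as did CID13 at -1.46 and -0.46 and AT5G24460 at -0.23 and -0.72. AT5G24510 was called at Michigan alone (-1.76, adjusted p = 0.00536, against -0.09 at Duke, and the Michigan and Duke differences were unequal by -1.67 with adjusted p = 0.0123). In wer myb23 and gl3 egl3 at Michigan, CID13 averaged only 4.88 and 4.31 and AT5G24510 only 4.47 and 3.97, which left less room for a loss. Beyond DMR6, none of the next 9 measured genes was lower at both facilities, and AT5G24580 and AT5G24610 were called higher at Duke alone.

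**Figure D2:**
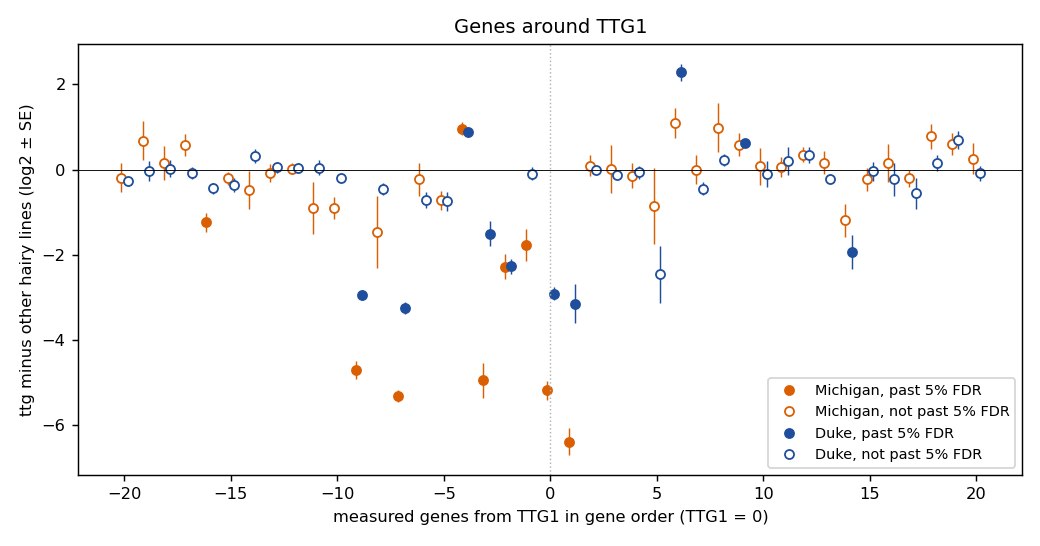
Difference of ttg from the other hairy lines (log2, bars are 1 standard error) for TTG1 and 20 measured genes on each side of it in gene order, at Michigan (orange) and at Duke (blue), with filled points past a false discovery rate of 5%. Values reach -6.38 for DMR6 at Michigan, and of the 41 genes 6 were lower and 1 higher at both facilities.

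The neighbourhoods of the mutated genes were compared by the share called at both facilities in the same direction, which was 0.378% over all genes. Of the 21 measured genes from 10 before to 10 after TTG1, 33.3% were so called, while for WER, MYB23 and EGL3 none of the 21 was. Within 500 measured genes on each side, TTG1 had 16 lower and 3 higher genes of 1001 (1.9%), EGL3 had 9 lower and 4 higher (1.3%), MYB23 had 7 lower (0.699%), and WER had 3 higher (0.3%). On chromosome 5 these wide windows overlap. AT5G27750, AT5G28050, AT5G35450 and AT5G35460 were counted for both TTG1 and MYB23, and AT5G19100 for both TTG1 and WER. The study lists GL3 as absent from the array used, so it was not measured.

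Lower genes lay mostly on chromosomes 1 and 5. Chromosome 5 held 20, among them TTG1 and its 5 lower neighbours, and chromosome 1 held 19 of the 46 lower genes, whereas the 35 higher genes were spread as 7, 7, 10, 3 and 8 over chromosomes 1 to 5. Between AT5G24430 and AT5G28050 (258 measured genes), 14 were lower and 1 was higher at both facilities, and 8 of the 14 lay beyond the run that ends at DMR6. Between AT1G44740 and AT1G64230 (1210 measured genes), 18 were lower and 5 higher. EGL3, mutated in gl3 egl3, lies inside this stretch of chromosome 1. These stretches were bounded by the called genes themselves, so their counts are a description. With all genes cut into 216 bins of up to 100 in gene order, 4 bins with 3 or more lower genes held 17 of them, and 1 bin held as many as 3 higher genes.

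**Figure D3:**
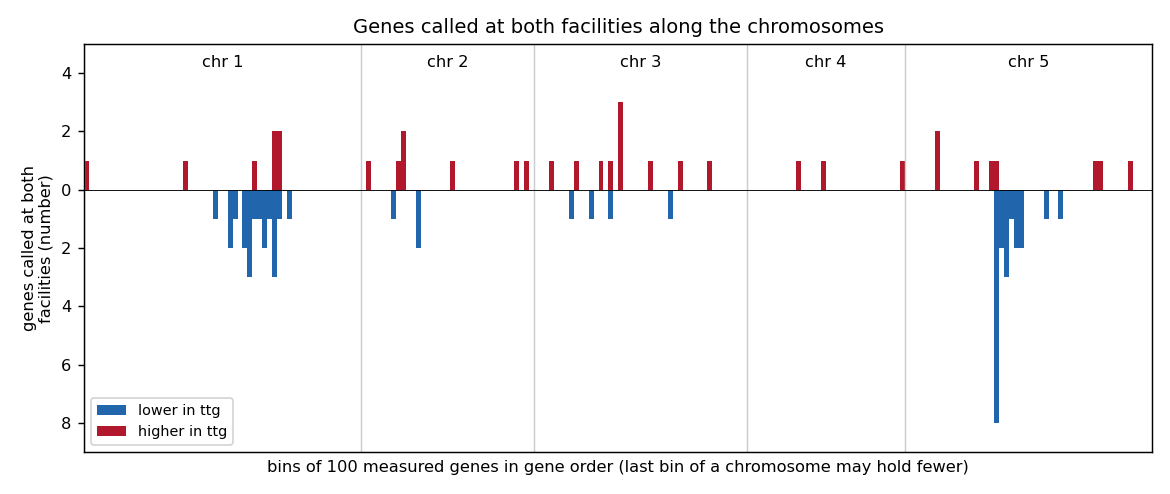
Number of genes called at both facilities in each bin of 100 measured genes along the 5 chromosomes in gene order, with genes lower in ttg drawn downwards and genes higher in ttg upwards. Lower genes gather on chromosome 5 around TTG1 and on chromosome 1, and higher genes reach at most 3 in a bin.

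Among the largest losses away from TTG1 was that of a metabolic enzyme. ACLA-2 (AT1G60810), a subunit of the ATP-citrate lyase that makes cytosolic acetyl-CoA, read 6.68, 7.0 and 6.62 in ttg at Michigan, against 10.55 to 11.01 in wer myb23, 10.60 to 10.90 in gl3 egl3 and 10.89 to 11.12 in wild type. At Duke, ttg read 5.69, 5.61 and 5.66 against 10.33 to 11.20 in the other lines. The groups were far apart at both facilities, with differences of -4.03 ± 0.46 (adjusted p = 2.8e-08) and -5.06 ± 0.14 (adjusted p = 7.34e-08).

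AT5G26270, on the chromosome 5 stretch, read 2.87, 3.39 and 3.17 in ttg at Michigan against 7.03 to 9.55 in the other lines, and 5.76, 5.50 and 5.56 at Duke against 7.38 to 11.32. No ttg array reached another line, and the differences were -4.96 ± 0.40 and -4.0 ± 0.25. GSTU8, a tau class glutathione transferase, read 8.41, 8.52 and 8.05 in ttg at Michigan against 10.49 to 11.43, and 7.72, 7.78 and 7.60 at Duke against 8.62 to 11.13. Its losses were alike at the facilities, -2.58 ± 0.28 and -2.60 ± 0.33. GLR2.1, a glutamate receptor-like channel, differed by -5.18 at Michigan, where ttg read 3.32, 2.81 and 3.57 against 7.74 to 8.96, and by -1.38 at Duke, where ttg read 5.52, 5.36 and 5.30 against 5.80 to 8.09. The cpc try arrays read 5.24 to 6.17 at Michigan and 5.58 to 5.75 at Duke for this gene, between ttg and the other hairy lines at Michigan and near ttg at Duke.

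Among the shared genes were 3 cytochrome P450 genes of the CYP705A family, CYP705A27 and CYP705A13 lower and CYP705A32 higher. CYP705A27 read 3.17, 2.78 and 3.04 in ttg at Michigan against 6.71 to 8.14 in the other lines, and 5.25, 5.10 and 4.96 at Duke against 6.29 to 8.58. CYP705A13 fell by 1.36 at Michigan and 0.94 at Duke. CYP705A32 rose instead, from 2.83 to 3.15 in the other lines to 5.79, 6.48 and 5.04 in ttg at Michigan, and from 4.37 to 5.23 to 6.77, 6.47 and 6.56 at Duke, by 2.77 ± 0.41 and 1.73 ± 0.12. For CYP705A27 the differences were -4.56 ± 0.46 and -2.34 ± 0.14, and no ttg array overlapped another line for any of these genes.

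LEA7, a late embryogenesis abundant protein, fell more at Duke than at Michigan. It read 10.06, 10.45 and 11.03 in ttg at Michigan against 11.32 to 12.55, and 5.10, 4.81 and 4.93 at Duke against 7.57 to 10.45. ATG8C, a ubiquitin-like protein of the autophagosome, read 7.38, 7.78 and 7.57 at Michigan against 9.01 to 10.15, and 6.48, 6.29 and 6.92 at Duke against 7.47 to 8.87. The differences were -1.5 and -4.08 for LEA7 and -1.91 and -1.70 for ATG8C, with no overlap. UBC28, a ubiquitin-conjugating enzyme, fell by 1.52 and 1.42, and COL4, a B-box protein of the CONSTANS-like family, fell by 2.60 and 1.45.

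Over all 46 lower genes, the median size of the difference was 2.01 at Michigan and 1.31 at Duke. More than 2-fold differences at both facilities were seen for 28. With each facility taken alone, 2.71% of all genes at Michigan and 4.16% at Duke passed 2-fold. The ttg arrays overlapped no array of the other hairy lines for 43 of them at Michigan (6.69% of all genes), for 32 at Duke (6.21%), and for 32 at both (0.756%). This separation follows in part from the calls that chose these genes. With each line taken apart, 34 of the 46 passed for both lines at Michigan (0.471% of all genes) and 26 at Duke (1.41%). The shares of all genes called against wer myb23 and gl3 egl3 singly were 1.71% and 0.854% at Michigan and 7.16% and 34.7% at Duke. The contrasts against each line share the ttg arrays.

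**Figure D4:**
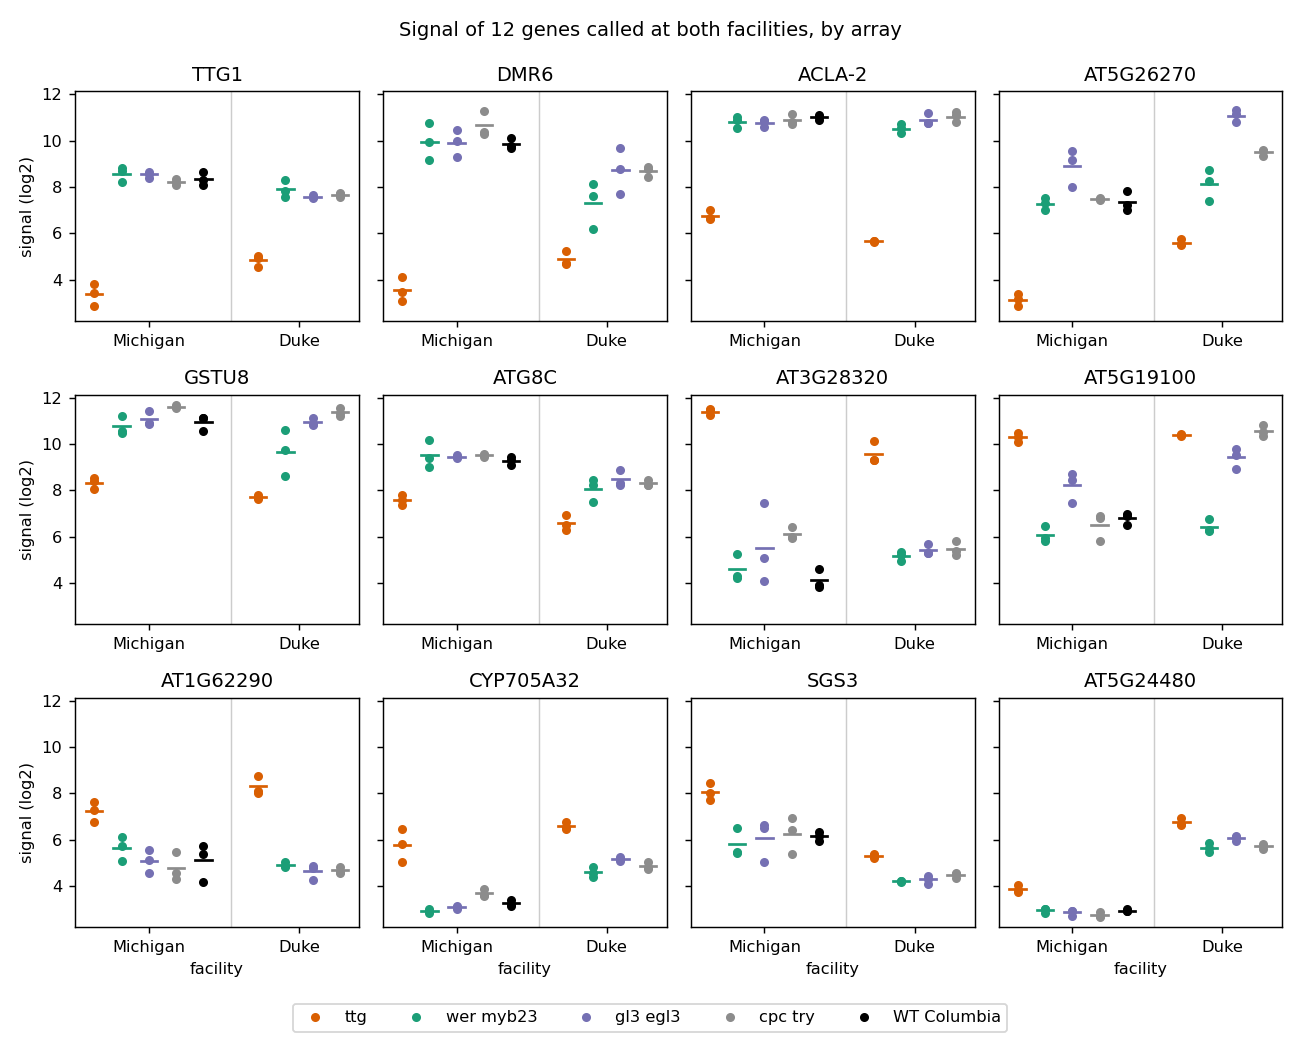
Log2 value of each array for 12 genes called at both facilities, by line and facility, with 3 arrays per line and a bar at each mean. In the ttg columns ACLA-2 lies between 5.61 and 7.0 and AT3G28320 between 9.29 and 11.49, apart from wer myb23 and gl3 egl3 at both facilities.

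Among the 35 higher genes, AT3G28320 had the largest gain at both facilities. Its value was 11.45, 11.23 and 11.49 in ttg at Michigan, against 4.2 to 5.25 in wer myb23, 4.06 to 7.43 in gl3 egl3 and 3.81 to 4.61 in wild type, and 9.29, 9.29 and 10.12 at Duke, against 4.94 to 5.67 in the other hairy lines. The ttg arrays were well above all of these, by 6.34 ± 0.76 (adjusted p = 7.25e-08) and 4.28 ± 0.21 (adjusted p = 6.21e-06), or 80.8-fold and 19.4-fold.

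AT5G19100 read 10.07, 10.29 and 10.49 in ttg at Michigan, against 5.79 to 6.45 in wer myb23 and 7.44 to 8.72 in gl3 egl3, and 10.33, 10.40 and 10.44 at Duke, against 6.23 to 6.74 and 8.93 to 9.79. The differences were 3.15 ± 0.36 and 2.47 ± 0.19, and the hairless cpc try arrays read 10.35 to 10.83 at Duke, at the level of ttg, but 5.82 to 6.89 at Michigan, below it. AT1G62290 read 6.77, 7.62 and 7.3 in ttg at Michigan against 4.56 to 6.11, and 8.10, 8.03 and 8.75 at Duke against 4.27 to 5.02. The ttg arrays were the highest at both facilities, by 1.87 ± 0.41 and 3.53 ± 0.18.

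SGS3 and SQN, which act in small RNA pathways, were among the higher genes. SGS3, a partner of the RNA polymerase that makes trans-acting small RNAs, read 8.02, 8.45 and 7.69 in ttg at Michigan against 5.02 to 6.65, and 5.35, 5.19 and 5.39 at Duke against 4.09 to 4.43. SQN, a cyclophilin that supports ARGONAUTE1, read 7.40, 7.56 and 7.25 at Michigan against 3.49 to 7.24, and 6.74, 6.53 and 6.52 at Duke against 5.20 to 6.33. Both genes were higher in every ttg array than in any array of the other hairy lines, by 2.13 and 1.07 for SGS3 and by 2.36 and 0.98 for SQN (adjusted p = 0.0487 at Duke). The nearest array for SQN at Michigan was replicate 1 of gl3 egl3 at 7.24.

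JMJD5, a jumonji protein tied to the clock, read 7.26, 8.03 and 7.25 in ttg at Michigan against 5.29 to 7.01, and 7.77, 7.88 and 7.91 at Duke against 5.97 to 6.96. AGAL1, an alpha-galactosidase of the cell wall, read 8.68, 9.65 and 8.72 at Michigan against 7.28 to 7.99, and 7.25, 7.20 and 7.75 at Duke against 4.93 to 6.78. Neither gene overlapped at either facility, with differences of 1.49 and 1.39 for JMJD5 and of 1.38 and 1.61 for AGAL1. The other higher genes with complete separation named by the same rule were AT1G54020, AT3G05150, AT4G39955, AT2G43530, AT3G10780 and FP3, a farnesylated protein, with differences from 1.33 to 1.81 at Michigan and from 1.13 to 2.60 at Duke. ENDO3, a nuclease, rose by 1.8 and 1.03.

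Not every shared gene was separate at the level of arrays. PLT1, an AP2 transcription factor of the root stem cell niche, read 7.65, 8.13 and 6.99 in ttg at Michigan, against 5.03 to 5.51 in wer myb23, 5.76 to 7.65 in gl3 egl3 and 6.16 to 6.80 in wild type. At Duke it read 6.60, 6.66 and 6.66 in ttg, against 6.05 to 6.72 in wer myb23 and 5.77 to 5.84 in gl3 egl3. The arrays overlapped at both facilities, and the differences were 1.68 ± 0.41 (adjusted p = 0.02) and 0.60 ± 0.15 (adjusted p = 0.0442). Over all 35 higher genes, the median size was 1.5 at Michigan and 1.07 at Duke, and 20 changed more than 2-fold at both. With each facility taken alone, 2.71% of all genes at Michigan and 4.16% at Duke passed 2-fold. At both facilities 27 had no overlap, beside 0.756% of all genes, which follows in part from the calls that chose them. Against each line apart, 14 of the 35 passed for both lines at Michigan (0.471% of all genes) and 24 at Duke (1.41%).

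Wild type lay with the other hairy lines for most of these genes. Its Michigan mean was nearer to the mean of wer myb23 and gl3 egl3 than to ttg for 45 of the 46 lower and 26 of the 35 higher genes. Among the 21 Michigan groups, ttg had the lowest mean for 26 of the 46 lower genes and the highest for 16 of the 35 higher genes, beside 4.62% and 3.24% of all genes. The remaining shared genes were therefore at least as extreme in some other group. These counts, and those of nearness below, follow in part from the calls that chose the genes. Those calls set ttg apart from wer myb23 and gl3 egl3, which are among the 21 groups.

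The Michigan groups outside the contrast included 4 of rhd6. RHD6 is a bHLH factor that starts hair formation, and the rhd6-1 line was profiled as rhd6, rhd6 + MS, rhd6 + ACC (the ethylene precursor) and rhd6 + IAA (an auxin). The shared genes whose group mean lay nearer to ttg than to the other hairy lines numbered 51 for rhd6 + MS (63%, beside 60% of all genes), 46 for rhd6 + ACC (56.8%, beside 49.0%), 40 for rhd6 (49.4%, beside 42.3%) and 40 for rhd6 + IAA (49.4%, beside 38.9%). They numbered 36 for csld3 (44.4%, beside 55.7%), 22 for cpc try (27.2%, beside 54.7%), 10 for wild type (12.3%, beside 44.0%) and 2 for cow1 (2.47%, beside 30.9%). The counts of the rhd6 groups were thus the highest but lay only somewhat above their shares of all genes, and those of csld3, cpc try, wild type and cow1 lay below theirs. All 4 rhd6 groups lay nearer to ttg for 16 lower and 11 higher genes. AT5G26270 had means of 3.03 to 3.23 in the rhd6 groups, beside 3.14 in ttg, and ACLA-2 had 6.47 to 6.72. AT3G28320 had 9.08 to 10.77 and AT5G19100 11.49 to 11.73 there.

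**Figure D5:**
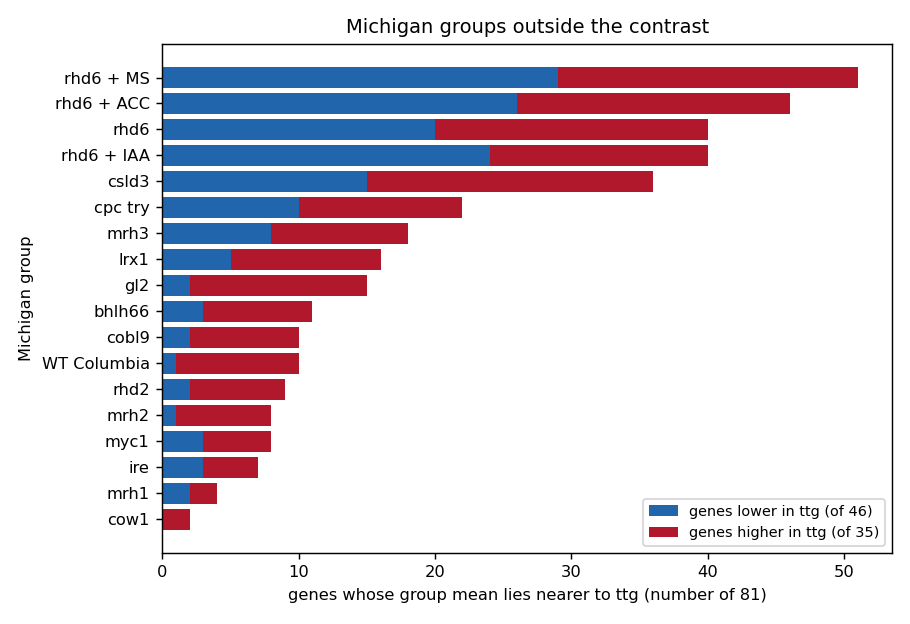
Number of the 81 shared genes whose mean in each of the 18 other Michigan groups lay nearer to ttg than to the mean of wer myb23 and gl3 egl3, with lower genes in blue and higher genes in red. The 4 rhd6 groups have 40 to 51 genes and wild type has 10, and the shares over all genes, from 30.9% to 60%, are not drawn.

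Along the chromosomes these counts were uneven. For the 6 lower genes next to TTG1, 0 of the 18 groups lay nearer to ttg. For the 18 lower genes of the chromosome 1 stretch, rhd6 + MS and rhd6 + IAA each lay nearer for 16. The count was 15 for rhd6 + ACC, 10 for rhd6, 4 for csld3, and 0 for cpc try and wild type. Over all genes, the shares were 60% for rhd6 + MS, 38.9% for rhd6 + IAA, 49.0% for rhd6 + ACC and 42.3% for rhd6. They were 55.7% for csld3, 54.7% for cpc try and 44.0% for wild type. RHD6 itself lies past the end of this stretch in gene order. For the 8 other genes of the chromosome 5 stretch, rhd6 + MS lay nearer for 5, cpc try for 4, rhd6 for 3, and rhd6 + ACC, rhd6 + IAA and csld3 for 2 each. These counts are a description, and no cause was tested.

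The hair and non-hair genes that the study built its network from gave no gene called at both facilities. Of the hair genes, 0 were higher and 1 lower at Michigan (0.649%, beside 1.39% of all genes), and 5 were higher and 1 lower at Duke (3.9%, beside 5.51%). The gene lower at Michigan was AT4G15390, at -2.39. Of 54 non-hair genes, 1 was higher at Michigan (1.85%) and 4 were higher and 1 lower at Duke (9.26%). The study chose these lists on these arrays by asking for a change in all hairy lines against cpc try, so their calls are not independent of that choice. The medians of the hair genes were -0.40 at Michigan and -0.22 at Duke, beside 0.01 and -0.05 over all genes. At Duke the median was 0.18 against wer myb23 and -0.69 against gl3 egl3, so its sign rested on the line chosen.

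Of 18 measured root hair growth genes, only RHD6 was called, and only at Duke (5.56%, beside 5.51% of all genes), where it read 7.74 to 8.24 in ttg, 8.12 to 8.98 in wer myb23 and 5.88 to 5.97 in gl3 egl3. Its difference there was 0.79 (adjusted p = 0.0359) and at Michigan -0.55, where all hairy lines read 9.45 to 10.76.

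Of the other mutated genes measured, none was called at both facilities. WER did not pass at either facility (0.56, adjusted p = 0.326, and 0.46, adjusted p = 0.439). MYB23 was called higher at Duke alone, by 1.08 (adjusted p = 0.0312, against 0.53 at Michigan), with 6.65, 6.80 and 6.42 in ttg, 5.81 to 6.50 in wer myb23 and 4.49 to 5.24 in gl3 egl3. EGL3 was called higher at Duke alone, by 1.90 (adjusted p = 0.0339, against 0.94 at Michigan), with 7.78, 8.02 and 7.81 in ttg, 6.19 to 8.87 in wer myb23 and 4.45 to 4.52 in gl3 egl3. Of the hairy lines at Duke, both genes read lowest in gl3 egl3, while ttg and wer myb23 overlapped. LWD1, a WD40 protein of the circadian clock, was also called higher at Duke alone (0.97, adjusted p = 0.0363, against 0.35 at Michigan), with 10.33, 10.32 and 10.23 in ttg, 9.19 to 10.40 in wer myb23 and 8.62 to 9.14 in gl3 egl3. Of the 18 measured regulators in this list, 1 was called at Michigan (5.56%, beside 1.39% of all genes) and 4 at Duke (22.2%, beside 5.51%), and TTG1 alone was called at both. Apart from LWD1, the genes called are mutated in the lines compared, so these shares are not a result about the other regulators.

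Flavonoid and anthocyanin genes, which TTG1 controls in shoots and seed coats, were called for 3.03% of 33 measured at Michigan and 6.06% at Duke, near the 1.39% and 5.51% of all genes, and 0 at both. UGT78D1, a flavonol glycosyltransferase, was higher at Michigan alone (1.35, adjusted p = 0.0454), TT10, a laccase of seed coat tannins, was higher at Duke alone (1.04, adjusted p = 0.0066), and MYB113 was lower at Duke alone (-0.35). The 24 measured glucosinolate genes had medians of 0.14 at Michigan and -0.05 at Duke, beside 0.01 and -0.05 over all genes. Of these 24, 5 were higher at Duke (20.8%, beside 5.51% of all genes) and 0 were called at Michigan. They included CYP79B2, which starts the indole branch from tryptophan (1.72, adjusted p = 0.00713, against 1.45, adjusted p = 0.197, at Michigan), CYP83B1, the next enzyme of that branch (1.43 at Duke, 0.69 at Michigan), and MYB34, a regulator of it. CYP79B2 read 8.62, 9.0 and 8.10 in ttg at Duke against 6.16 to 7.73, and 8.18, 9.61 and 7.98 at Michigan against 6.4 to 7.71, so ttg was the highest of the hairy lines at both facilities, while cpc try read 8.54 to 9.85.

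The other lists held 20 genes or fewer, and beside 1.39% of all genes called at Michigan and 5.51% at Duke, 0 or 1 call in such a list is not a result about it. Of 15 defence genes, DMR6 was lower at both facilities, and DLO1, a related salicylic acid hydroxylase, was higher at Michigan (1.43, adjusted p = 0.0485) and 1.58 at Duke without passing (adjusted p = 0.0745). DLO1 read 10.69, 11.35 and 10.66 in ttg at Michigan against 8.78 to 10.72, which overlapped, and 8.14, 8.10 and 8.18 at Duke against 5.04 to 7.28, which did not. Of 20 iron acquisition genes, bHLH39, an iron deficiency regulator, was lower at Michigan alone (-2.61, adjusted p = 0.00777), with 5.05, 4.65 and 4.36 in ttg against 5.90 to 9.20. Of 16 phosphate genes 0 were called, and of 16 cell division genes PLT1 was the only one, with list medians of 0.57 at Michigan and 0.08 at Duke. None of the 4 lateral root cap, 13 ground tissue, 15 stele, or 16 stress and wounding genes was called at either facility against the mean of the other hairy lines. The root cap markers averaged 8.48 to 9.74 in ttg at Michigan against 8.0 to 9.25 in the other hairy lines, and 8.64 to 8.79 at Duke against 7.03 to 9.40.

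The size of the difference was unequal between facilities for some members. A test of the Michigan against the Duke difference passed for 0.49% of all genes, among them 14 of the 46 lower and 0 of the 35 higher genes. The Michigan difference was the larger for 38 of the lower and 28 of the higher genes. The 5th percentile of the 9 arrays lay at 2.86 to 2.95 at Michigan and 3.83 to 4.01 at Duke, and its part in the unequal sizes was not tested. In ttg at Duke, AT5G24450 read 3.86 to 4.09. GLR2.1, AT5G24430 and CYP705A27, which also fell less there, read 4.96 to 5.68. TTG1, mutated in this line, averaged 4.84 there, so a level above the 5th percentile does not show that transcript remained. The genes called in opposite directions were GSTU14, AT2G14110, AT2G33830, AT5G40500 and AT5G43030.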

How the data were processed

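The authors sorted GFP-positive cells, hybridized ATH1 arrays, and summarized probes by RMA with quantile normalization on custom probe sets, and deposited log2 expression values per gene. How the arrays of the facilities were divided for normalization, the build, and the annotation are not given in the sources used here. Dropping 64 control probe sets gave 21440 genes to test, and 21222 of them matched a RefSeq (TAIR10.1) locus for names and gene order. No filter was applied. limma 3.58.1 in R 4.3.3 fitted 1 mean per group to the 63 Michigan arrays (21 groups) and, apart, to the 12 Duke arrays (4 groups), with moderated tests and Benjamini-Hochberg adjustment over all genes. The difference between facilities was fitted on the 18 arrays compared. P-values rest on the spread within groups of 3 labelled biological replicates, pooled over all groups in a fit, lines outside the contrast among them. With only the 9 arrays of the 3 lines in each fit, 40 genes were shared, 38 of them among the 81. Array number limits the precision. Genes named are the mutated genes, the 12 in each direction with the largest smaller difference and no overlap, members of the lists, and the 10 measured genes on each side of TTG1. GLR2.1, UBC28, COL4, SGS3, SQN, ENDO3 and CYP705A13 were added after their values were seen. The members and lists were chosen with earlier results of these data known. The fits were tested on simulated data. The alternatives tried were other arrays, filters, normalizations, thresholds, contrasts, and spread models.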

Additional observations from a re-analysis of the deposited data

Results flagged for a closer look

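For 18 genes called at both facilities, the differences of ttg from the other hairy lines at Michigan and at Duke differed by limma's test of the difference itself (adjusted p from 4.92e-05 to 0.0457). Values are the Michigan minus the Duke difference on the log2 scale, and no explanation was tested. Next to TTG1, the loss was larger at Michigan for AT5G24430 (-1.76), AT5G24450 (-2.06), AT5G24490 (-3.45), TTG1 (-2.27) and DMR6 (-3.24). On the rest of chromosome 5, SYP41, a syntaxin of the trans-Golgi network, gave -2.15 and GLR2.1 -3.79. SYP41 read 3.26 to 4.04 in ttg against 5.99 to 6.71 at Michigan, and 3.62 to 3.75 against 3.72 to 4.45 at Duke. On chromosome 1, the losses of AT1G44740 (-1.88), CYP705A27 (-2.22), AT1G54260 (-2.71), ZW9 (-1.94) and AT1G61500 (-2.45) were larger at Michigan, while those of LEA7 (2.58) and ACLA-2 (1.03) were larger at Duke. AT1G61500 averaged 3.95 in ttg, 3.94 in gl3 egl3 and 4.76 in wer myb23 at Duke, so its loss there lay against wer myb23.

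The other 4 were called in opposite directions. AT5G40500 (1.43) and AT2G14110 (1.21) were higher in ttg at Michigan and lower at Duke, and GSTU14 (-2.44) and AT2G33830 (-3.78) were lower at Michigan and higher at Duke. GSTU14 read 9.20 to 9.44 in ttg at Duke, 8.83 to 10.07 in wer myb23 and 6.46 to 6.79 in gl3 egl3, so its higher value there lay against gl3 egl3. AT5G40500 averaged 5.88 in ttg at Duke, 5.66 in wer myb23 and 7.07 in gl3 egl3, so its lower value there also lay against gl3 egl3. AT2G33830 read 7.02 to 7.95 in ttg against 8.10 to 10.75 at Michigan, and 8.52 to 9.10 against 6.15 to 7.55 at Duke, without overlap at either facility.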

How the results depend on the processing

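Values are percentages of all genes called at Michigan, at Duke, and at both in the same direction, beside 1.39%, 5.51% and 0.378% as reported. With only the 9 arrays of the 3 lines in each fit they were 0.784%, 2.26% and 0.187%. An FDR of 1% gave 0.756%, 1.06% and 0.154%, an unadjusted p under 0.01 gave 3.88%, 11.1% and 0.933%, and a call against each line gave 0.471%, 1.41% and 0.168%. A 2-fold minimum left 1.86% at Duke and 0.224% at both. Setting all arrays to the same median gave 10.2% at Duke, and quantile normalization gave 8.45%. Leaving out 3 Michigan arrays of wer myb23 and gl3 egl3 whose labels carry another array series or numbers under 10 gave 0.732% there and 63 shared genes. Leaving out each array in turn gave 0.583% to 1.79% at Michigan, 0.877% to 23.0% at Duke, and 0.187% to 0.611% at both. Against wer myb23 alone, an alternative chosen after seeing the data, 0.471% were called at both, which included 55 of the 81.

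The replicate block gave 1.40%, 6.99% and 0.387%, or 83 shared genes, 73 of them among the 81. Replicate numbers are shared between the lines. The deviations of same-numbered arrays correlated at -0.354 to 0.418, over 0.1 in 6 of 18 pairs. Replicate 2 of wer myb23 and of gl3 egl3 correlated at 0.418 at Michigan and 0.328 at Duke. The labels do not say whether same-numbered arrays were prepared together, and these values do not decide it. In the fits that kept the contrast, no named gene called at both facilities in the same direction changed direction. Against wer myb23 alone at Duke, RHD6 turned from 0.79 to -0.55 and GSTU14 from 1.28 to -0.17. AT5G40500 turned from -0.48 to 0.22 there and AT5G43030 from 1.08 to -0.97.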
